A study of Mus musculus with 35 samples.

Results

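The transcripts examined are those of 10 genes that run the G1 phase of the cell cycle, chosen by name: the D-type cyclins Ccnd1, Ccnd2 and Ccnd3, the E-type cyclins Ccne1 and Ccne2, the kinases Cdk4, Cdk6 and Cdk2, and the inhibitors Cdkn1a and Cdkn1b. All 10 were found among the 54446 genes of the bulk RNA-seq table, and all 10 passed the filter on low values in both sets of libraries. The study built 3D cultures of the mouse epiblast, the pluripotent tissue that forms the embryo proper, and compared them with other cultures and with epiblasts taken from embryos. Of its 35 samples, 27 had bulk RNA-seq values and were used. The other 8, single-cell and bisulfite libraries, were not analysed here.

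The cultures gave 12 libraries in 4 groups of 3, all described as wild-type. EpiLCs were ESCs held for 48 h in FGF2 and Activin-A, a formative state between naive and primed pluripotency. By their label, the 2D EpiSCs were ESCs converted with the same factors and kept as a flat primed culture. ESC-derived 3D EpiSCs, called ESC-3D cells here, were ESCs embedded in Matrigel in FAXN medium, which holds bFgf2, Activin-A, the Wnt pathway inhibitor XAV939 and the Bmp inhibitor Noggin. Embryo-derived 3D EpiSCs, called Embryo-3D cells, were grown in the same gel and medium from epiblasts of E5.5 embryos. The study's methods name LifeAct-GFP, a reporter line, and wild-type CD1 as the embryos used. They do not say which gave these libraries. Medium and dimension changed together between 2D and 3D EpiSCs, and origin and genetic background changed together between both 3D cultures. Origin and background also changed between Embryo-3D cells and the 2D EpiSCs and EpiLCs, which came from ESCs. By the study's methods EpiSCs were kept on fibronectin, so the matrix changed with dimension too. The 15 in vivo libraries were 3 each of the inner cell mass at E3.5 and of the epiblast at E4.5 and, a day apart each, up to E7.5, pooled from embryos of both sexes that the labels give as CD-1. By the study's methods, parents were CD1 or Pdgfrα:H2B-GFP mice, a reporter whose green nuclei mark primitive endoderm. The trophectoderm was cut off by laser at E3.5 and lysed by immunosurgery at E4.5. At E4.5 the reporter line was used, the tissue was trypsinised to single cells, and cells without GFP were picked. At the later stages the extra-embryonic tissues had been cut away.

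In G1 a cell decides whether to copy its DNA. Growth factors raise the D-type cyclins, which activate CDK4 and CDK6. These kinases phosphorylate the retinoblastoma protein, which releases E2F factors. E2F factors switch on the E-type cyclins and the replication genes, and cyclin E with CDK2 completes the step into S phase. The inhibitors p21 (Cdkn1a), a classic target of p53, and p27 (Cdkn1b) bind and hold back these complexes. Naive pluripotent cells are known for a short G1 with little D-type cyclin and high cyclin E activity, and G1 lengthens as cells differentiate. RNA levels do not measure kinase activity, and cell cycle phase was not measured in these libraries.

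On mm10, Ccnd1 lies at chr7:144929931-144939925, Ccnd2 at chr6:127125162-127152193 and Ccnd3 at chr17:47505051-47599691. Ccne1 lies at chr7:38097984-38107534 and Ccne2 at chr4:11191351-11204779. The kinases Cdk4, Cdk6 and Cdk2 lie at chr10:127063534-127067920, chr5:3341485-3531008 and chr10:128697939-128705031, and the inhibitors Cdkn1a and Cdkn1b at chr17:29090976-29100727 and chr6:134920401-134925513. In the GENCODE vM21 annotation, 8 members share exon bases with a gene on the other strand, for example 1100 bases of Ccnd1 with LTO1 and 641 bases of Cdk4 with Tspan31. Both library kits mark the strand, and whether the quantification used it is not given in the sources used here, so such levels may hold reads of the partner gene. Cdkn1b and Ccne1 share none.

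Levels are TPM, transcripts scaled to the library total and corrected for transcript length, which have the same sum in all libraries, so that depth is lost. Folds are differences of log2(TPM + 1), which understate the change of genes near 0. They were tested with limma, and a gene was called as changed where its Benjamini-Hochberg adjusted p over all genes tested was below 0.05 and its log2 fold change was above 1 or below -1. The labels do not say that replicates were separate cultures or litters, so p-values measure the spread between these libraries only. Culture libraries came from poly-A capture and embryo libraries from total RNA, so the kit and the origin of the cells cannot be told apart, and levels of both sets stand side by side with no test. Fragmentation of RNA differed between the E3.5 and E4.5 libraries and the later ones, which cannot be told apart from the step from E4.5 to E5.5. Nor can the change of isolation, and at E4.5 of mouse line, be told apart from the steps into and out of that stage.

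The epiblast gene Pou5f1 had a mean of 251 TPM or more in every group. All 5 epiblast markers had means above 2 TPM in every group but E3.5. There 4 of them did, and Fgf5 had a mean of 0.0892 TPM. From E6.5 to E7.5, 4 of the 5 were called lower, also under rescaling, beside 1.94% of all genes. Their mean sum was 1000 TPM at E6.5 and 363 TPM at E7.5. Means went from 721 to 251 TPM for Pou5f1, 97.0 to 4.99 TPM for Fgf5, 23.2 to 7.08 TPM for Nanog and 126 to 60.5 TPM for Otx2. Markers of other lineages were also found in vivo. Summed TPM of 7 trophectoderm and extra-embryonic ectoderm markers was 3212 to 3266 at E3.5 and 2802 to 2984 at E4.5, with means of 127 TPM for Elf5 and 87.8 TPM for Gata3 at E4.5, and lay between 336 and 855 from E5.5 on. At E7.5 the mean sum was 832 TPM, with means of 340 TPM for the keratin Krt8, 56.7 TPM for Cdx2 and 0.224 TPM for Elf5. Summed TPM of 9 primitive and visceral endoderm markers was 473 to 484 at E3.5, 68.2 to 85.9 at E4.5 and 614 to 1060 from E5.5 on, when Ttr, Afp and Apoa1, secreted products of visceral endoderm, had means of 81.0 TPM or more. The 6 mesoderm markers summed to 20.1 to 22.1 TPM at E5.5, 127 to 189 at E6.5 and 175 to 181 at E7.5. In the cultures the trophectoderm list lay between 43.5 and 731 TPM, highest in 2D EpiSCs, the endoderm list between 0.799 and 63.8 TPM, also highest there, and the mesoderm list between 2.83 and 29.8 TPM. In 2D EpiSCs the keratins Krt8 and Krt18 had means of 316 and 336 TPM, of a mean sum of 672 TPM for the trophectoderm list. Gata3, Tead4 and Tfap2c had means of 7.78, 8.76 and 2.93 TPM there, and 2 of the 7 markers were below 1 TPM in each library. Of the 6 blood and endothelium markers, Hba-x and Hbb-bh1 were listed at 0 in every library, and the list summed to 37.7 to 38.3 TPM at E7.5 and to 19.0 TPM or less elsewhere. The part of cells of other lineages in the levels below was not tested, and in bulk samples fewer cells of a type and less RNA per cell cannot be told apart. Mitochondrial genes took between 3.57% and 18.6% of TPM per library, most at E4.5.

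Replicates 1 and 2 of the ESC-3D cells, 2 and 3 of the Embryo-3D cells and 1 and 2 of the 2D EpiSCs were nearly the same, with a median absolute log2 difference between them of 0.0610, 0.0569 and 0.0649. Other pairs of in vitro replicates differed by 0.131 to 0.271. Without counts, sampling noise could not be tested. Replicate 3 of the ESC-3D and replicate 1 of the Embryo-3D cells stood apart from their groups. For Ccnd2 and Cdk6, results are also given without each of them, and for Cdkn1a without the ESC-3D one. For other members, leaving them out is part of the alternatives and is not given on its own.

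In vivo, members were called at 3 of 4 steps. From E3.5 to E4.5, 4 of 10 members were called, Ccnd1, Ccne1 and Cdk6 higher and Cdkn1a lower, beside 17.8% of all 11880 genes tested (5.88% higher, 11.9% lower). From E4.5 to E5.5, 4 were called, Ccnd1, Ccnd2 and Cdkn1b higher and Ccnd3 lower, beside 24.4% of all genes (14.9% higher, 9.47% lower). From E5.5 to E6.5 none was called by limma, beside 1.2% of all genes (0.715% higher, 0.48% lower), and 2 had an unadjusted p below 0.05. The log2 fold changes of the 10 ran from -0.15 for Cdk2 to 0.41 for Ccnd2, and Ccnd2 alone had an adjusted p below 0.05 (adjusted p = 0.0111 by limma). From E6.5 to E7.5, 3 were called, Ccnd2, Cdk6 and Cdkn1a, all higher, beside 12.6% of all genes (10.6% higher, 1.94% lower). Over the 5 stages, all 10 differed by limma's moderated F test at adjusted p below 0.05, as did 91.6% of all genes.

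In vitro, against EpiLCs, 3 members were called in 2D EpiSCs (20.4% of 11541 genes, 15.2% higher and 5.14% lower), 2 in ESC-3D cells (12.4%, 5.33% higher and 7.11% lower) and 4 in Embryo-3D cells (18.8%, 10.5% higher and 8.28% lower). These comparisons share the EpiLC libraries. Against 2D EpiSCs, 1 was called in ESC-3D cells, Cdkn1a (9.89% of genes, 0.633% higher and 9.25% lower), and 1 in Embryo-3D cells, Ccnd2 (8.82%, 1.07% higher and 7.75% lower), and these comparisons share the 2D libraries. Between both 3D cultures, 2 were called, Ccnd2 and Cdkn1a, both lower in the ESC-3D culture (3.96% of genes, 1.98% lower). By the F test 7 of 10 differed among the 4 cultures, beside 77% of all genes. Ccne2 (adjusted p = 0.161), Cdk4 (adjusted p = 0.188) and Cdk2 (adjusted p = 0.838) did not pass it.

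**Figure D1:**
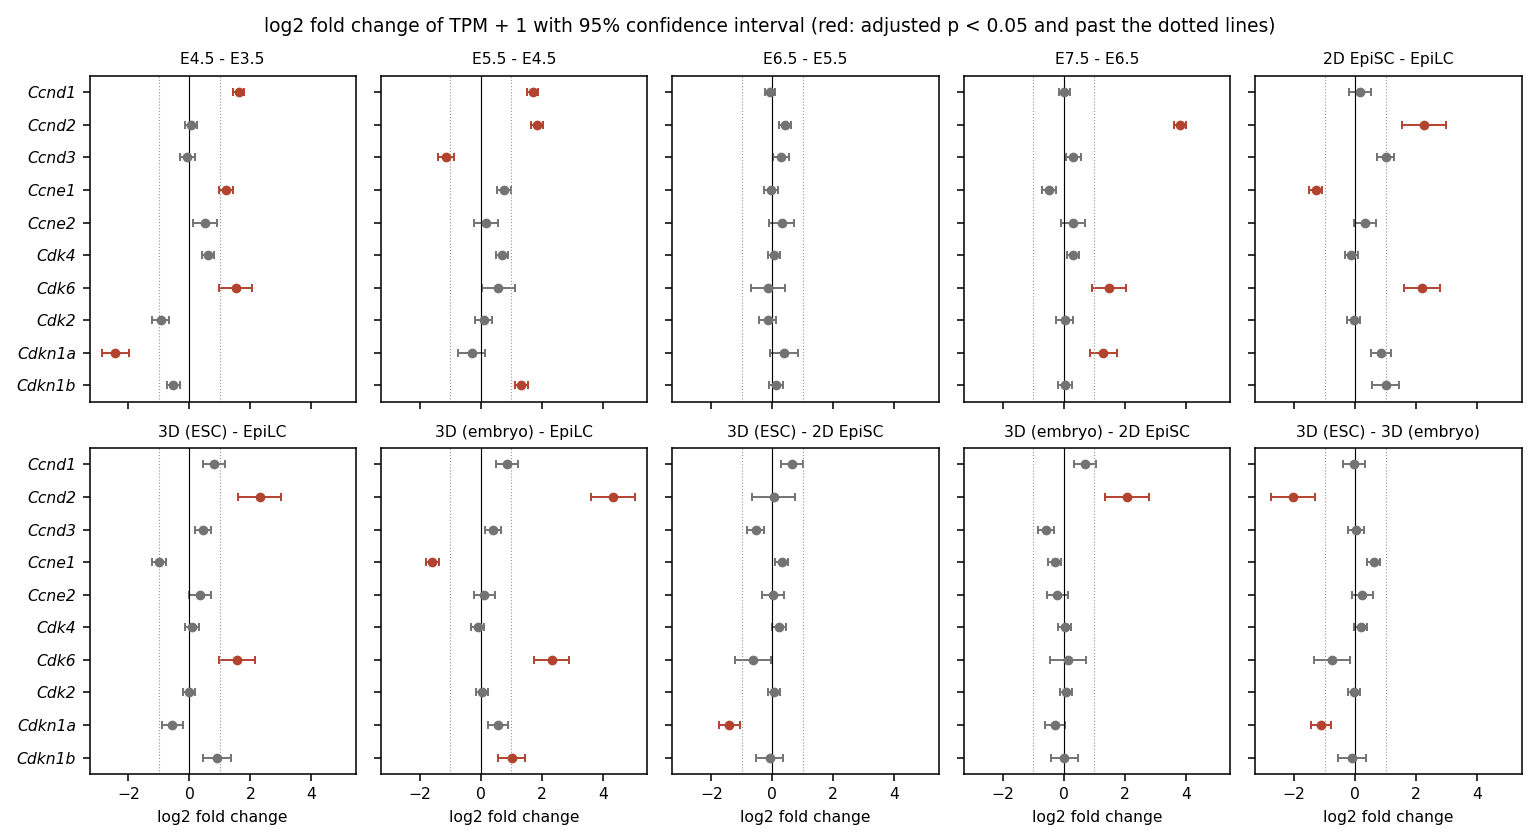
Each panel gives, for 1 comparison, the log2 fold change of TPM + 1 of the 10 genes with its 95% confidence interval from limma, 3 libraries a group. Red points have an adjusted p below 0.05 and lie past the dotted lines at -1 and 1. From E5.5 to E6.5 no point is red, and Ccnd2 has the largest values of the set, 3.81 from E6.5 to E7.5 and 4.34 between Embryo-3D cells and EpiLCs.

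Because TPM is relative, the median of all genes tested also moved, by 0.31 from E6.5 to E7.5, -0.10 from E3.5 to E4.5, 0.16 from E4.5 to E5.5, -0.21 between ESC-3D and 2D EpiSCs, 0.10 and 0.18 for Embryo-3D and 2D EpiSCs against EpiLCs, and -0.12 between both 3D cultures. After median-of-ratios rescaling, which brought these medians to between -0.03 and 0.03, each member called in vivo was called in the same direction. At E7.5 the split of all calls moved from 1265 higher and 231 lower to 736 higher and 382 lower. In vitro the split for 2D EpiSCs against EpiLCs moved from 1756 higher and 593 lower to 1336 and 786, and that between both 3D cultures from 228 and 229 to 270 and 149. The calls of Cdkn1a between both 3D cultures and of Cdkn1b between Embryo-3D cells and EpiLCs were lost under rescaling, and the other calls in vitro were kept.

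The D-type cyclins are the growth-factor sensors of the cycle, and the shares of the 3 genes differed from stage to stage. At E3.5, Ccnd3 made up 94.6% ± 0.292 of D-type TPM (SD, n = 3) and Ccnd1 5.25% ± 0.369. At E5.5, Ccnd1 held 57.9% ± 3.75 and Ccnd3 39.4% ± 4.02. At E7.5 the 3 genes were close to even, with 30.9% ± 0.521 for Ccnd1, 35.6% ± 0.629 for Ccnd2 and 33.5% ± 1.06 for Ccnd3. Summed D-type TPM was 129 ± 14.6 at E3.5, 139 ± 9.14 at E4.5, 132 ± 5.35 at E5.5 and 140.3 ± 6.60 at E6.5, with libraries of these stages overlapping while the shares of Ccnd1 and Ccnd3 differed. It reached 236 ± 7.54 at E7.5. These sums and shares are a description and were not tested.

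**Figure D2:**
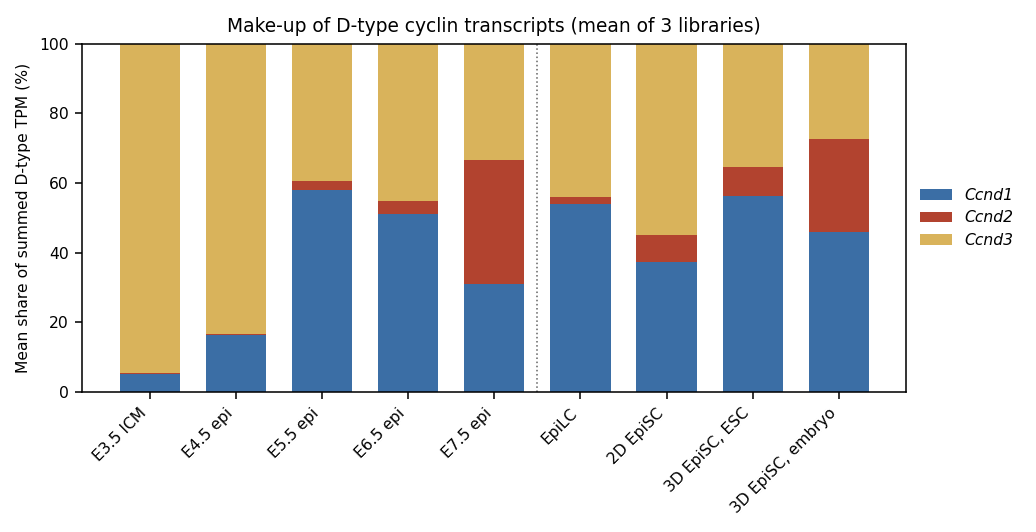
Bars stack the mean share of Ccnd1, Ccnd2 and Ccnd3 in their summed TPM (%), for 5 in vivo stages left of the dotted line and 4 cultures right of it, 3 libraries each. Ccnd3 goes from 94.6% at E3.5 to 33.5% at E7.5, and Ccnd2 is above 20% only at E7.5 (35.6%) and in Embryo-3D cells (26.8%).

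Ccnd1 encodes cyclin D1, the best known of the family. Its level was 6.19, 7.5 and 6.63 TPM at E3.5, 22.4, 23.4 and 22.5 TPM at E4.5 and 74.4, 78.9 and 74.8 TPM at E5.5. Libraries of these stages did not overlap, and both steps were called, by 1.62 ± 0.08 on the log2 scale (SE, adjusted p = 1.46e-09, limma), and by 1.70 ± 0.08 on the log2 scale (SE, adjusted p = 5.85e-10, limma). The level then stood at 72.7, 75.3 and 67.6 TPM at E6.5 and 75.4, 70.4 and 72.9 TPM at E7.5, which overlapped E5.5. Under rescaling the step to E7.5 was -0.31 (adjusted p = 0.00441), which did not pass the fold threshold.

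The cultures also differed in Ccnd1. EpiLCs had 90.2, 63.2 and 57.1 TPM and 2D EpiSCs 82.3, 79.8 and 67.4 TPM, which overlapped. ESC-3D cells had 132, 132 and 101 TPM and Embryo-3D cells 121, 126 and 126 TPM, which overlapped each other and lay above every 2D library. The differences of the 3D cultures from 2D EpiSCs, 0.65 and 0.70 on the log2 scale, had adjusted p-values of 0.00825 and 0.00734 by limma and stayed below the fold threshold. Over the alternatives these adjusted p-values reached 0.0981 and 0.0697 by limma, so neither stayed below 0.05 in every run.

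Ccnd2 encodes cyclin D2, which is known from blood, brain and gonad. It was the last of the family to appear. It was close to 0 early on, with 0.360, 0.197 and 0.120 TPM at E3.5 and 0.215, 0.309 and 0.282 TPM at E4.5. It reached 3.31, 3.88 and 3.48 TPM at E5.5 and 4.99, 5.51 and 4.69 TPM at E6.5. At E7.5 it stood at 85.8, 82.3 and 84.1 TPM, above all libraries of the earlier stages and in the range of Ccnd1 and Ccnd3. The step to E5.5 was called (log2 fold change 1.84 ± 0.09 (SE), adjusted p = 7.88e-10 by limma), and with a pseudocount of 0.1 in place of 1 it was 3.32. The step to E7.5 was 3.81 ± 0.09 on the log2 scale (SE, adjusted p = 1.65e-12, limma), and it was the widest of the 4 steps for any member. At the same step the mesoderm list went from a summed 127 to 189 TPM to 175 to 181 TPM. Of its 6 genes, 3 were called higher and 2 lower at this step, and 3 and 3 under rescaling. Foxf1 had a mean of 0.820 TPM at E6.5 and 33.8 TPM at E7.5, Tbx6 0.939 TPM and 25.1 TPM, and Hand1 9.73 TPM and 82.0 TPM. Means of Mixl1 went the other way, from 53.7 TPM to 5.33 TPM, as did those of Mesp1, from 57.3 TPM to 14.1 TPM, and Snai1, from 29.5 TPM to 17.0 TPM. Their part in the rise of Ccnd2 was not tested.

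Among the cultures Ccnd2 ranged most widely of the 3. EpiLCs had 3.28, 2.17 and 2.34 TPM, below every other culture. 2D EpiSCs had 19.6, 17.2 and 12.4 TPM and ESC-3D cells 12.1, 12.9 and 28.8 TPM, which overlapped. Embryo-3D cells had 46.3, 88.4 and 88.6 TPM, and their lowest library lay above those of the other cultures. Embryo-3D cells exceeded 2D EpiSCs by 2.08 ± 0.33 on the log2 scale (SE, adjusted p = 0.000597, limma), and ESC-3D ones did not pass the test against 2D EpiSCs (log2 fold change 0.04 ± 0.33 (SE), adjusted p = 0.933 by limma, 95% CI -0.67 to 0.76).

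The difference between both 3D cultures in Ccnd2 was itself called (log2 fold change -2.04 ± 0.33 (SE), adjusted p = 0.00181 by limma). Both libraries that stood apart lie nearest to the other culture: replicate 3 of the ESC-3D culture, at 28.8 TPM, and replicate 1 of the Embryo-3D culture, at 46.3 TPM. Without the former the difference was -2.42 and without the latter -2.35, both called. With the near-identical libraries averaged as 1 it was -1.70 with an adjusted p of 0.0606 by limma, and the call was lost. Without ESC-3D replicate 3, the difference of that culture from 2D EpiSCs turned from 0.04 to -0.34, not called.

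Ccnd3 encodes cyclin D3. It ran against Ccnd1 in vivo, with 119, 138 and 110.5 TPM at E3.5 and 115, 107 and 126 TPM at E4.5, which overlapped, against 51.7, 44.8 and 59.3 TPM at E5.5. This fall was called (log2 fold change -1.15 ± 0.12 (SE), adjusted p = 1.34e-06 by limma). Summed trophectoderm markers were also lower, going from 2802 to 2984 TPM to 336 to 370 TPM, though by the study's methods this layer had been taken off at E4.5, and their part in the fall of Ccnd3 was not tested. The level was 68.9, 60.0 and 61.1 TPM at E6.5 and 83.6, 78.8 and 74.8 TPM at E7.5. These 2 stages did not overlap, and their difference of 0.32 (adjusted p = 0.0352 by limma) became -0.016 under rescaling.

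In vitro the order was EpiLCs, with 50.0, 63.4 and 55.0 TPM, then both 3D cultures, with 70.2, 68.7 and 91.7 TPM in ESC-3D and 73.0, 73.0 and 77.0 TPM in Embryo-3D ones, then 2D EpiSCs, with 114, 110.3 and 112 TPM. The 3D cultures overlapped each other and lay below every 2D library. Their differences from 2D EpiSCs, -0.55 (adjusted p = 0.00407) and -0.59 (adjusted p = 0.00345) by limma, did not pass the fold threshold. Over the alternatives the adjusted p-values of these differences reached 0.0931 and 0.0549 by limma. 2D EpiSCs differed from EpiLCs by 0.99 (adjusted p = 3.16e-05 by limma), just under that threshold. Ccnd1 and Ccnd3 thus stood in opposite order in 2D and 3D EpiSCs, and Ccnd3 held 54.8% ± 3.15 of D-type TPM in 2D EpiSCs against 35.5% ± 5.19 and 27.4% ± 2.63 in ESC-3D and Embryo-3D cells (SD, n = 3 each).

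**Figure D3:**
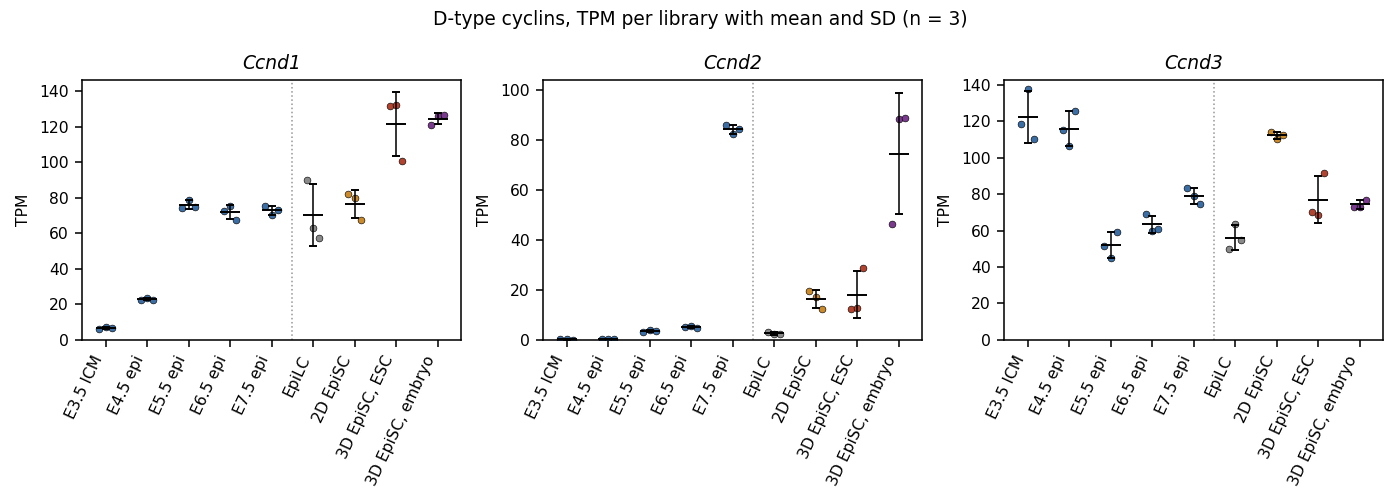
Points give TPM of Ccnd1, Ccnd2 and Ccnd3 in each library, with the mean and SD of 3 libraries as a black bar, for 5 in vivo stages left of the dotted line and 4 cultures right of it. Ccnd1 levels off at 67.6 to 78.9 TPM from E5.5 on, Ccnd2 stays at 5.51 TPM or less until E7.5, and its replicates in Embryo-3D cells spread from 46.3 to 88.6 TPM.

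The E-type cyclins act after the D-type cyclins, with CDK2. Ccne1, which encodes cyclin E1, was the main form throughout, at 79.0% ± 2.80 of E-type TPM in Embryo-3D cells, the lowest mean share, and 92.5% ± 1.30 in EpiLCs, the highest (SD, n = 3 each). In vivo its level was 53.9, 48.6 and 43.9 TPM at E3.5, 99.1, 124 and 117 TPM at E4.5 and 175, 192 and 207 TPM at E5.5. The first step was called (log2 fold change 1.20 ± 0.11 (SE), adjusted p = 5.85e-07 by limma), and the second, of 0.75 (adjusted p = 3.66e-05 by limma), lay below the fold threshold. E6.5 libraries, with 176, 186 and 198 TPM, overlapped those of E5.5. At E7.5 Ccne1 stood at 131, 128 and 142 TPM, below every E6.5 library, with a difference of -0.48 (adjusted p = 0.00229 by limma), or -0.81 under rescaling, and it was not called under either.

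EpiLCs had the highest Ccne1 of all libraries, with 299, 366 and 321 TPM and with the kit caveat above for those in vivo. 2D EpiSCs had 138, 130.1 and 131 TPM, ESC-3D cells 172, 173 and 148 TPM and Embryo-3D cells 113, 106 and 105 TPM, and none of the 4 cultures overlapped another. Ccne1 was called lower than in EpiLCs in 2D EpiSCs (log2 fold change -1.30 ± 0.10 (SE), adjusted p = 8.19e-07 by limma) and in Embryo-3D cells (log2 fold change -1.60 ± 0.10 (SE), adjusted p = 1.36e-07 by limma). In ESC-3D cells the difference was -0.99 (adjusted p = 1.09e-05 by limma), at the edge of the threshold, and it was called under 5 of 14 alternatives. These included the runs without ESC-3D replicate 1, without ESC-3D replicate 2 and with near-identical libraries averaged. The ESC-3D culture lay above the Embryo-3D one by 0.60 (adjusted p = 0.00223 by limma), not called.

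Ccne2, which encodes cyclin E2, was lower and flatter. Its group means were higher in order of stage, from 11.6 TPM at E3.5 to 29.4 TPM at E7.5. Neighbouring stages up to E5.5 overlapped, and no step was called. The step from E6.5 to E7.5, of 0.31, became -0.0145 under rescaling, and that from E4.5 to E5.5 went from 0.16 to 0.0145. The step to E4.5, of 0.51 on the log2 scale, had an adjusted p of 0.0311 by limma. In vitro its 12 libraries ran from 23.9 to 38.7 TPM. The confidence intervals of its 6 differences between cultures lay between -0.55 and 0.69.

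Cdk4 encodes the main partner kinase of the D-type cyclins. It was the highest of the 10 genes in each culture library. The 250 bases before its start site hold more matches to the E-box CACGTG, the letters bound by Myc and related factors, than those of the 6 other members with an entry in the promoter table, and the sequence is shown for that reason. It comes from RefSeq on GRCm38.p6, which is mm10, plus strand, chr10:127063285-127063533, ends before the first annotated start, and has the 4 E-boxes in capitals.

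Cdk4 upstream: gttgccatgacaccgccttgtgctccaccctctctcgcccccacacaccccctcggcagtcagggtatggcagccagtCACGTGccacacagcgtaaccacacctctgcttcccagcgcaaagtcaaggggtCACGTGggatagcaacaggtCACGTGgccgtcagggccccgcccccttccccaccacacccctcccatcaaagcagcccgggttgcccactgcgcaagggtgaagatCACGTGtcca

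An E-box was present in 6.02% of 32851 such windows of all genes (both strands, 1 letter string), and among the members with an entry in that table otherwise only before Cdk6, with 1. A match of letters is a description and does not show binding. Entries were found for 7 of 10 members, not for Ccnd1, Ccnd2 and Ccne2. The other strings searched were the GC box GGGCGG (32.7% of windows), the E2F sites TTTCCCGC, TTTGGCGC, TTTCGCGC and TTTGCCGC (1.86%) and the CRE TGACGTCA (1.55%). Ccne1 held 4 GC boxes, Cdk2 5 GC boxes and 1 E2F site, and Cdk4 1 GC box that overlaps none of its E-boxes. Ccnd3 held 2 GC boxes before its start at chr17:47505051 and 1 before that at chr17:47593467. Cdkn1a held 2 before its start at chr17:29093769, and Cdkn1b held 1.

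Cdk4 was higher at each stage up to E5.5, with 96.5, 114 and 92.1 TPM at E3.5, 145, 159 and 156 TPM at E4.5 and 251, 240.4 and 257 TPM at E5.5, without overlap. The steps of 0.61 (adjusted p = 7.72e-05) and 0.70 (adjusted p = 1.52e-05) by limma stayed below the fold threshold. E6.5 libraries, with 261, 252 and 261 TPM, overlapped those of E5.5. E7.5 libraries had 292, 337 and 323 TPM, above every E6.5 library by a difference of 0.30 (adjusted p = 0.0143 by limma), which became -0.039 under rescaling. The cultures had between 521 and 658 TPM, more than any in vivo library, with the kit caveat above, and the confidence intervals of the 6 differences between them lay between -0.35 and 0.43.

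Cdk6 encodes the other D-type partner, and it moved far more than Cdk4. In vivo it had 0.876, 0.793 and 0.464 TPM at E3.5 and 1.74, 5.29 and 5.68 TPM at E4.5, where replicate 1 lay well under the other 2. This rise was called (log2 fold change 1.52 ± 0.25 (SE), adjusted p = 0.000210 by limma), and it was 1.93 without E4.5 replicate 1 and 2.29 with a pseudocount of 0.1. The level was 5.91, 6.37 and 6.43 TPM at E5.5 and 6.29, 5.92 and 4.53 TPM at E6.5. E7.5 libraries stood above all of these, with 17.4, 16.5 and 17.9 TPM, a rise of 1.48 ± 0.25 on the log2 scale (SE, adjusted p = 0.000324, limma).

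In vitro EpiLCs had the least Cdk6, with 12.8, 10.9 and 11.3 TPM, and no library of another culture reached down to them. 2D EpiSCs had 52.1, 49.3 and 70.0 TPM, ESC-3D cells 28.5, 27.6 and 60.2 TPM and Embryo-3D cells 47.7, 72.2 and 69.4 TPM, and these 3 cultures overlapped. Each was called higher than EpiLCs, by 2.19 (adjusted p = 3.29e-05), 1.56 (adjusted p = 0.000671) and 2.32 (adjusted p = 2.27e-05) on the log2 scale by limma. Differences from 2D EpiSCs did not pass, with -0.63 (95% CI -1.21 to -0.04, adjusted p = 0.0755 by limma) in the ESC-3D and 0.13 (95% CI -0.45 to 0.72, adjusted p = 0.737 by limma) in the Embryo-3D culture. In the ESC-3D culture 1 library decides the level, since replicate 3, at 60.2 TPM, lay among the Embryo-3D libraries and replicates 1 and 2 at 28.5 and 27.6 TPM. The ESC-3D culture differed from the Embryo-3D one by -0.76 (adjusted p = 0.0646 by limma), and without that library by -1.12 (adjusted p = 0.00148), which was called. Without it the difference from 2D EpiSCs was -0.99 (adjusted p = 0.00131 by limma), just short of the fold threshold, and without Embryo-3D replicate 1 that of the Embryo-3D culture was 0.32, not called. Cdk4 held 98.0% ± 0.329 of the TPM of both kinases in EpiLCs, 90.3% ± 1.59 in 2D EpiSCs, 93.9% ± 3.41 in ESC-3D and 89.6% ± 2.07 in Embryo-3D cells (SD, n = 3 each).

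Cdk2 encodes the partner kinase of the E-type cyclins. Its highest in vivo level was at E3.5, with 82.8, 75.5 and 72.9 TPM, against 38.6, 33.5 and 48.0 TPM at E4.5. The difference of -0.94 (adjusted p = 4.53e-05 by limma) missed the fold threshold, and it was -1.08 and called without E4.5 replicate 3. Later stages ran from 33.3 to 45.5 TPM with no step called. The 12 culture libraries ran from 73.6 to 90.5 TPM, and the confidence intervals of their 6 differences lay between -0.26 and 0.28.

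**Figure D4:**
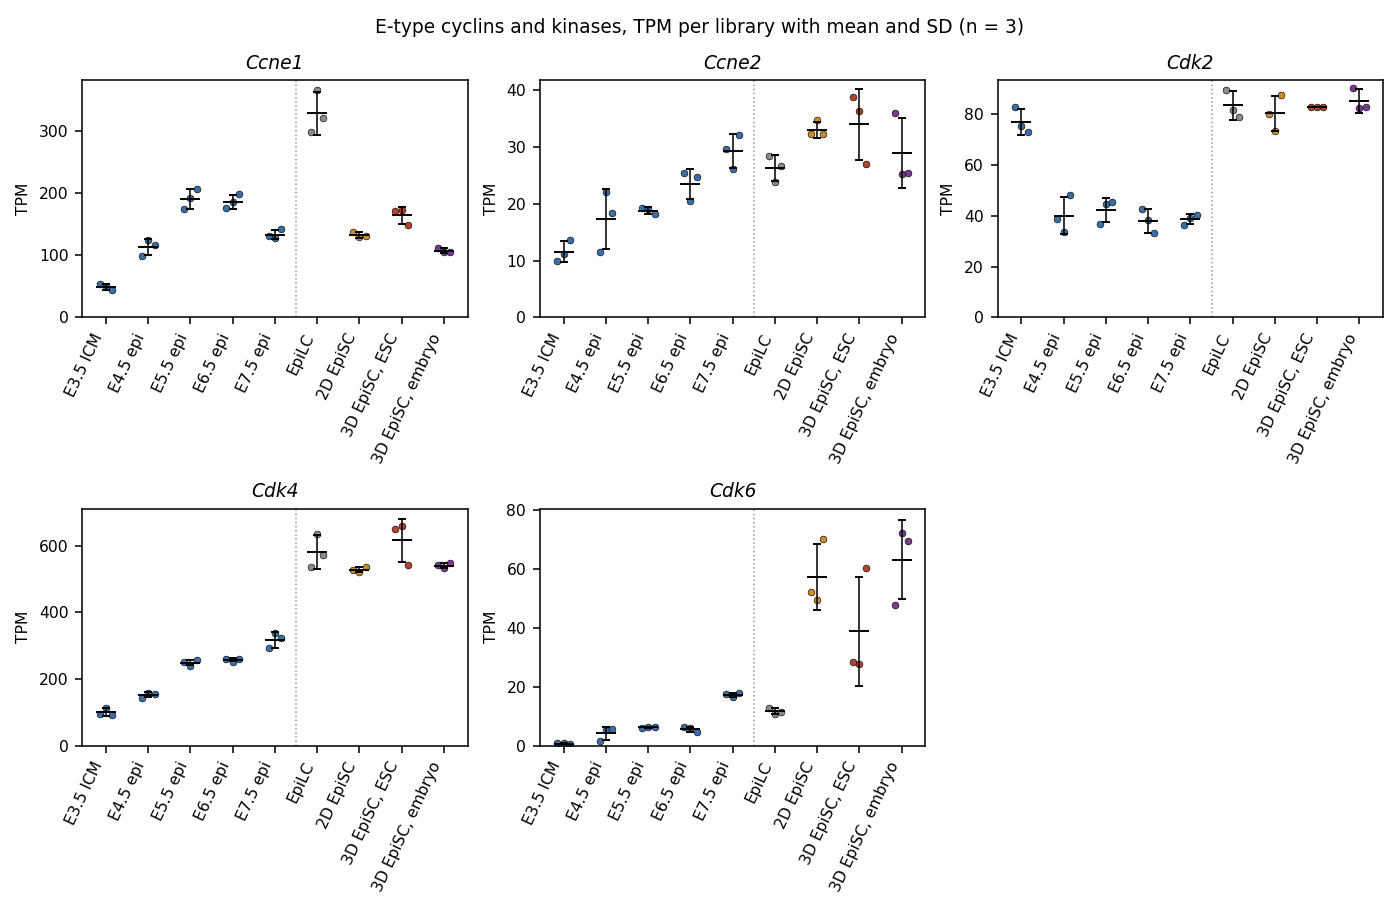
Points give TPM of Ccne1, Ccne2, Cdk2, Cdk4 and Cdk6 in each library, with the mean and SD of 3 libraries as a black bar, for 5 in vivo stages left of the dotted line and 4 cultures right of it. Ccne1 peaks in EpiLCs at 299 to 366 TPM, where Cdk6 is lowest among the cultures at 10.9 to 12.8 TPM.

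The inhibitors bind cyclin and kinase complexes. Cdkn1a encodes p21, the textbook target by which p53 stops cells in G1. One of its 2 start sites in RefSeq has a p53 element, from position -51 counted from that start, which is shown because the p53 targets are followed below. The element is a pair of adjacent half-sites, each a purine-rich stretch, a core and a pyrimidine-rich stretch, searched with at most 1 mismatch in all. It was found in 25 of the 32851 windows (0.0761%) and before none of the 6 other members searched, with Ccnd1, Ccnd2 and Ccne2 not searched. The sequence is from RefSeq, GRCm38.p6 (mm10), plus strand, chr17:29090729-29090975, with the element in capitals.

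Cdkn1a upstream: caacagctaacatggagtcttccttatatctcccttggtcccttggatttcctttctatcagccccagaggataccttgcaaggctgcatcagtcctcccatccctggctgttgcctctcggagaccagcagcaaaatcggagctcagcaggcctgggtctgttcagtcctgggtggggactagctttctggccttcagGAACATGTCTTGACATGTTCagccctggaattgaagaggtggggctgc

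In vivo Cdkn1a was highest at E3.5, with 17.2, 23.7 and 18.4 TPM, and fell to 2.65, 4.10 and 2.01 TPM at E4.5. The fall was called (log2 fold change -2.43 ± 0.21 (SE), adjusted p = 3.84e-07 by limma). It stayed at 2.12, 1.95 and 2.22 TPM at E5.5 and 3.40, 2.10 and 3.87 TPM at E6.5, and the stages from E4.5 to E6.5 overlapped. At E7.5 it stood at 10.6, 9.58 and 7.12 TPM, above each of them, a rise of 1.30 ± 0.21 on the log2 scale (SE, adjusted p = 0.000187, limma), or 1.01 under rescaling. No in vivo library reached the lowest culture library, at 38.5 TPM, with the kit caveat above.

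In vitro the order from the lowest was ESC-3D cells, with 60.5, 60.3 and 38.5 TPM, EpiLCs, with 85.0, 71.7 and 75.3 TPM, Embryo-3D cells, with 119, 109 and 115 TPM, and 2D EpiSCs, with 141, 136 and 142 TPM. None of the 4 groups overlapped another. ESC-3D cells were called lower than 2D EpiSCs (log2 fold change -1.41 ± 0.15 (SE), adjusted p = 5.11e-05 by limma). Embryo-3D cells did not pass against 2D EpiSCs, with -0.29 (95% CI -0.62 to 0.04, adjusted p = 0.167 by limma). The difference between both 3D cultures was called (log2 fold change -1.12 ± 0.15 (SE), adjusted p = 0.000593 by limma). It rested in part on the lowest ESC-3D library, replicate 3, without which it was -0.91 (adjusted p = 6.71e-05 by limma), below the fold threshold, and it was -0.99 under rescaling.

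Cdkn1b encodes p27, which rises in cells that leave the cycle. It had 13.2, 10.9 and 10.9 TPM at E3.5 and 7.98, 6.83 and 8.54 TPM at E4.5, the lowest stage, and 20.1, 22.3 and 20.8 TPM at E5.5. The rise to E5.5 was called (log2 fold change 1.33 ± 0.10 (SE), adjusted p = 1.05e-07 by limma), and E6.5 libraries, between 20.6 and 24.9 TPM, overlapped those of E5.5. E7.5 libraries had 22.4, 24.7 and 24.1 TPM, which overlapped E6.5 and lay above every E5.5 library. In vitro EpiLCs had 31.2, 33.4 and 16.9 TPM, 2D EpiSCs 55.0, 53.6 and 50.3 TPM, ESC-3D cells 45.7, 46.3 and 57.9 TPM and Embryo-3D cells 49.6, 55.6 and 55.2 TPM. The EpiSC cultures overlapped and lay above all EpiLC libraries. Embryo-3D cells were called higher than EpiLCs at the edge of the threshold (log2 fold change 1.01 ± 0.20 (SE), adjusted p = 0.00140 by limma), and 5 of 14 alternatives lost the call. EpiLC replicate 3, at 16.9 TPM, lay well below the others, and without it the difference was 0.71 (adjusted p = 0.000652 by limma). Against EpiLCs, 2D EpiSCs differed by 0.99 (adjusted p = 0.00140 by limma) and ESC-3D cells by 0.90 (adjusted p = 0.00387 by limma), not called.

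The balance of both inhibitors also differed between groups. Cdkn1a held 62.7% ± 5.94 of their summed TPM at E3.5, 9.10% ± 0.899 at E5.5 and 27.6% ± 4.63 at E7.5 (SD, n = 3 each). In the cultures it held 51.1% ± 9.71 in ESC-3D cells, 68.1% ± 2.24 in Embryo-3D ones, 72.5% ± 1.11 in 2D EpiSCs and 74.3% ± 6.78 in EpiLCs.

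**Figure D5:**
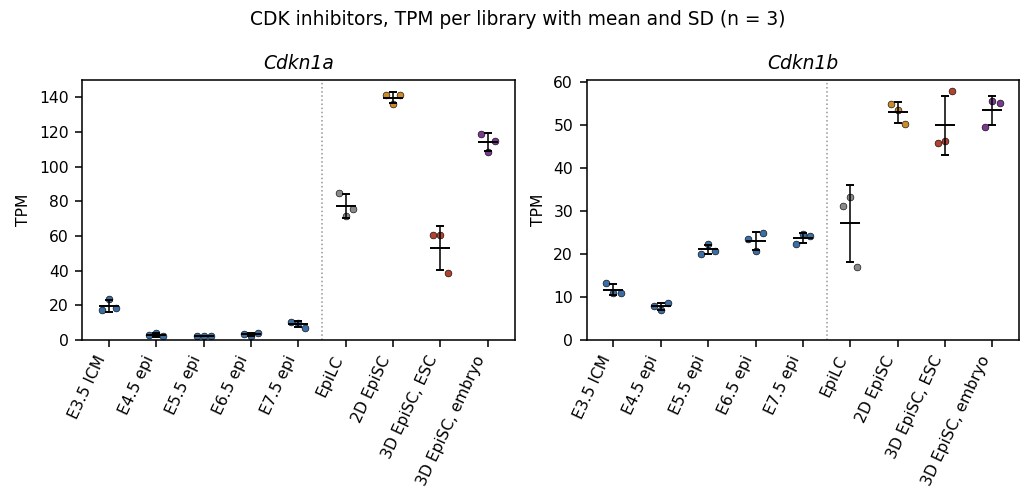
Points give TPM of Cdkn1a and Cdkn1b in each library, with the mean and SD of 3 libraries as a black bar, for 5 in vivo stages left of the dotted line and 4 cultures right of it. Cdkn1a lies between 1.95 and 23.7 TPM in vivo and between 38.5 and 142 TPM in the cultures, lowest there in ESC-3D cells. The library kits of both sets differ.

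Other genes of the pathway were read from lists. The p53 targets were followed beside Cdkn1a. From E3.5 to E4.5, 3 of 14 were called lower and none higher, beside 11.9% and 5.88% of all genes. They were Ccng1 (-2.10), Plk2 (-1.77) and Phlda3 (-1.19), with a list median of -0.65 against -0.10 for all genes. Between ESC-3D and 2D EpiSCs 4 were called lower and none higher, beside 9.25% and 0.633% of all genes. They were Trp53inp1 (-2.20), Btg2 (-1.78), Plk2 (-1.47) and Mdm2 (-1.0), with a list median of -0.77 against -0.21, and 3 were called under rescaling. From E6.5 to E7.5, Plk2 was called higher (1.10) and Pmaip1, a cell death gene, lower (-1.45), beside 10.6% of all genes higher and 1.94% lower, with a list median of 0.04 against 0.31 for all genes, and under rescaling none was called higher and 2 lower. Between both 3D cultures Trp53inp1 was called lower in the ESC-3D one (-1.22) and Pmaip1 higher (2.36), beside 1.98% of all genes in each direction, with a list median of -0.48 against -0.12.

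In the Embryo-3D culture against 2D EpiSCs, Pmaip1 (-2.18) and Btg2 (-1.49) were called lower and the stress gene Sesn2 higher (1.12), beside 7.75% of all genes lower and 1.07% higher, with a list median of -0.46 against -0.08. Against EpiLCs, Pmaip1 was called lower in each EpiSC culture, with Trp53inp1 (-1.69) and Plk2 (-1.12) lower in ESC-3D, Sesn2 higher (1.35) in Embryo-3D and Btg2 higher (1.40) in 2D EpiSCs, beside the 12.4%, 18.8% and 20.4% of all genes called in these comparisons. From E4.5 to E5.5, Pmaip1 (1.30) and Zmat3 (1.08) were called higher, beside 14.9% of all genes, and 1 of these calls remained under rescaling. Pmaip1 stood at a mean of 88.0 TPM in EpiLCs, 4.88 TPM in ESC-3D cells, 3.73 TPM in 2D EpiSCs and 0.0393 TPM in Embryo-3D cells. Each of these p53 target calls had an adjusted p of 0.00138 or less by limma.

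Of the 5 other CDK inhibitors listed, 4 were tested in each set, all but Cdkn2b in vivo and all but Cdkn2c in vitro. Cdkn1c, which encodes the imprinted inhibitor p57, was called higher from E3.5 to E4.5 (2.48, adjusted p = 1.24e-08 by limma), beside 5.88% of all genes. It was again called higher from E6.5 to E7.5 (2.09, adjusted p = 1.40e-07 by limma), beside 10.6% of all genes. Its means were 2.63 TPM at E3.5, 19.4 TPM at E4.5, 26.1 TPM at E6.5 and 114 TPM at E7.5, so that at E7.5 it exceeded both Cdkn1a and Cdkn1b. Cdkn2c, which encodes p18, was called lower at E4.5 (-1.04) and again at E5.5 (-1.38), beside 11.9% and 9.47% of all genes. Its mean went from 4.57 TPM at E3.5 to 0.0370 TPM at E5.5, and the first of these calls was lost under rescaling. In vitro Cdkn2a and Cdkn2b were called lower in ESC-3D and Embryo-3D cells than in 2D EpiSCs, beside 9.25% and 7.75% of all genes. Levels are per gene, so different transcripts of Cdkn2a were not told apart. Means of Cdkn2a were 2.21 TPM in ESC-3D, 0.718 TPM in Embryo-3D, 9.44 TPM in 2D EpiSCs and 25.6 TPM in EpiLCs. Means of Cdkn2b were 1.63, 1.27, 8.35 and 7.54 TPM in the same order. Against EpiLCs, 2 of the 4 tested were called lower in ESC-3D and 2 in Embryo-3D cells, beside 7.11% and 8.28% of all genes. In 2D EpiSCs 1 was called lower, beside 5.14%.

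In the RB and E2F family of 13 genes, Rb1, the retinoblastoma gene itself, was called lower than in 2D EpiSCs in ESC-3D (-1.70, adjusted p = 2.27e-05) and Embryo-3D cells (-1.12, adjusted p = 0.000317) by limma. It was the single gene of the list called in each, beside 9.25% and 7.75% of all genes called lower, and its means were 5.32, 8.39 and 19.4 TPM in ESC-3D, Embryo-3D and 2D EpiSCs. From E3.5 to E4.5, 3 were called higher and none lower, beside 5.88% and 11.9% of all genes, E2f5 (1.53), E2f7 (1.37) and E2f4 (1.15). In ESC-3D cells, the RB relative gene Rbl2 (-1.10), which encodes p130, and the E2F partner gene Tfdp2 (-1.0) were called lower than in EpiLCs, beside 7.11% of all genes. E2f5 was also called higher than in EpiLCs in 2D EpiSCs (1.24) and Embryo-3D cells (1.08), and Rbl1, which encodes the RB relative p107, in the latter (1.10), beside 15.2% and 10.5% of all genes called higher. Under rescaling the calls of the latter culture became 0 higher and 2 lower. Rbl1 was also called higher at E7.5 (1.00), a call lost under rescaling.

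Genes downstream of G1 were read in the same way. Of 13 replication genes that E2F factors control, 1 was called over the 10 comparisons, in which between 1.2% and 24.4% of all genes were called. It was Orc1, a subunit of the origin recognition complex, lower in Embryo-3D cells than in EpiLCs (-1.13). List medians in vivo were 0.21, 0.27, -0.04 and 0.23 in order of stage, against -0.10, 0.16, -0.06 and 0.31 for all genes. Against EpiLCs the list median was -0.36 in 2D EpiSCs and -0.36 in Embryo-3D cells, beside 0.18 and 0.10 for all genes, and -0.59 and -0.49 under rescaling, beside -0.03 and -0.02. In ESC-3D cells it was -0.14, beside 0.01. Mcm2, a subunit of the replicative helicase, was lower in 2D EpiSCs than in EpiLCs by a difference of -0.92 (adjusted p = 1.18e-05 by limma), just short of the fold threshold, with means of 227 TPM and 432 TPM. Under rescaling 2 were called lower in Embryo-3D cells and 1 in 2D EpiSCs than in EpiLCs. Of 10 other G1 to S regulators none was called in any comparison by limma, and the largest change among them was 0.80 for Skp2, a part of the ligase that destroys p27, from E3.5 to E4.5. Of 10 tested cyclins and kinases of S, G2 and M phase, Cdc25c, a phosphatase that starts mitosis, was called higher than in EpiLCs in ESC-3D (1.00) and Embryo-3D cells (1.14), and no other gene of that list was called in any comparison.

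Levels of the members, as log2(TPM + 1), moved together in part. Over the 15 in vivo libraries, Ccnd1 ran with Cdk4 (Pearson r = 0.969) and Ccne1 (r = 0.941) and against Ccnd3 (r = -0.840). Over the 12 in vitro libraries, Ccnd2 ran with Cdk6 (r = 0.886), and Ccne1 ran against Cdk6 (r = -0.963) and Ccnd2 (r = -0.935). These are descriptions over libraries that share groups, and no p is given.

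The tested genes whose in vivo profile was most like that of Ccnd1 were Car4 (r = 0.996), Hmga1b (r = 0.995) and Cd276 (r = 0.995). For Ccnd2 they were Nrp1 (r = 0.996), Ajap1 (r = 0.995) and Cplx2 (r = 0.994), and for Ccnd3 Pon2 (r = 0.976), Krt8 (r = 0.974) and Rhob (r = 0.972). Krt8 is on the trophectoderm list above, whose genes did not all move alike. From E3.5 to E4.5, 2 of its 7 were called higher and 2 lower, beside 5.88% and 11.9% of all genes. Ccnd3 was not called at that step. All 7 were called lower from E4.5 to E5.5, beside 9.47% of all genes, as was Ccnd3. For Cdkn1a they were Agpat4 (r = 0.972), Rfx4 (r = 0.969) and Alg5 (r = 0.967).

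In vitro, over 12 libraries and 11541 genes, the nearest to Ccnd1 were Arfgap2 (r = 0.961), Gpr27 (r = 0.946) and Napa (r = 0.942), and the nearest to Ccnd2 were Slc22a21 (r = 0.990), Bivm (r = 0.985) and Gpaa1 (r = 0.982). Fam114a1 (r = 0.985), Otx2 (r = 0.973) and 5031439G07Rik (r = 0.972) were nearest to Ccnd3, and Dcbld1 (r = 0.947), Polr2a (r = 0.944) and Ak1 (r = 0.942) to Cdkn1a. No gene was among the 3 nearest in both sets.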

How the data were processed

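Reads had been trimmed by the authors (cutadapt 2.4), mapped with STAR on mm10, and summarised per gene by StringTie with the GENCODE VM19 annotation. The deposited values are TPM, normalised for length and library total, so that depth is not kept and a count model could not be run. The table held 54490 lines for 54446 genes. The 12 identifiers on several lines were summed, and an empty cell on 56 lines was read as 0. In vitro libraries were poly-A captured, in vivo libraries were ribosome-depleted total RNA, and both kits keep strand. Between 20324 and 26751 genes were above 0 per library.

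Groups were taken from the sample titles, 3 libraries each. Autosomal protein-coding genes (20774, biotypes of GENCODE vM21) with TPM above 2 in at least 3 libraries were tested on log2(TPM + 1) with limma 3.58.1 in R 4.3.3. One fit covered the 12 in vitro libraries (11541 genes) and another the 15 in vivo libraries (11880 genes), with no covariate. The study's count-based test needs counts, which are not kept in TPM, so limma took its place. Calls needed an adjusted p below 0.05 (Benjamini-Hochberg, all genes tested) and a log2 fold change beyond 1 in size. The code was tested on simulated data. Shares, sums and Pearson correlations are descriptions without a test.

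The members and gene lists were chosen with earlier results of these data known. All 10 members are named. Of each list, at most 4 called genes with the largest change per comparison are named, or at most 2 where none was called, and for Ccnd1, Ccnd2, Ccnd3 and Cdkn1a the 3 genes with the highest correlation in each set. Foxf1, Tbx6 and the other markers given with values were named after their values were seen. Alternatives were a pseudocount of 0.1, no filter, all gene types, median-of-ratios rescaling, fits of the compared groups only, an intensity trend, the replicate number as a block, near-identical replicates averaged, and each replicate left out.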

Additional observations from a re-analysis of the deposited data

Results flagged for a closer look

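Ccnd2 and Cdkn1a were the members called in the direct comparison of ESC-derived with embryo-derived 3D EpiSCs. That comparison equals the difference of both 3D effects against 2D EpiSCs, because they share the 2D libraries. For Ccnd2 this difference was -2.04 (adjusted p = 0.00181 by limma), with effects against 2D EpiSCs of 0.04 for the ESC-derived culture and 2.08 for the one from embryos. All 3 embryo-derived libraries lay above all ESC-derived ones. With near-identical libraries averaged the Ccnd2 difference was -1.70 (adjusted p = 0.0606 by limma), and the call was lost. For Cdkn1a the difference was -1.12 (adjusted p = 0.000593 by limma), with effects of -1.41 and -0.29, and all 3 ESC-derived libraries lay below all embryo-derived ones. The Cdkn1a call was lost under rescaling (-0.99) and without ESC-derived replicate 3 (-0.91). Ccne1 was not called, but its effects against 2D EpiSCs had opposite signs. They were 0.30 (adjusted p = 0.0288) for the ESC-derived and -0.30 (adjusted p = 0.0377) for the embryo-derived culture by limma. Over the alternatives these adjusted p-values reached 0.250 and 0.276. The difference of both Ccne1 effects was 0.60 (adjusted p = 0.00223 by limma). Origin and genetic background of the cells cannot be told apart here, and both also differed between the embryo-derived culture and the 2D EpiSCs.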

How the results depend on the processing

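Of 803 alternative values for 59 log2 fold changes of members, 773 kept direction and side of the threshold, 17 gained a call, 8 lost one and 5 turned sign. The counts of members called from E3.5 to E7.5 stayed within 1.5 times the main count under each alternative run. Against EpiLCs, ESC-derived 3D EpiSCs had 2 called members, 2 to 4 when a replicate was left out (4 without EpiLC replicate 1), and 2D EpiSCs had 3, 3 to 5 when one was left out (5 without EpiLC replicate 2) and 5 with a pseudocount of 0.1. Between both 3D cultures 2 became 1 under rescaling and 1 with near-identical libraries averaged. Among these 59, the signs that turned belonged to differences that were not called. Ccnd2 between ESC-derived 3D and 2D EpiSCs was 0.04, from -0.34 to 0.25 when a replicate was left out (-0.14 without 2D replicate 3). Ccnd3 (-0.016) and Cdk4 (-0.039) turned from E6.5 to E7.5 under rescaling. Cdk6 between embryo-derived 3D and 2D EpiSCs was 0.13, or -0.037 with near-identical libraries averaged. Differences outside the 59 were not counted, and some of them also turned sign under rescaling. From E6.5 to E7.5, Ccnd1 went from 0.02 to -0.31 and Ccne2 from 0.31 to -0.0145, neither called. The cause was not tested.

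The replicate number as a block left each count of called members as it was, for example 4 from E3.5 to E4.5 and 2 between both 3D cultures. Deviations of libraries with the same number had a mean correlation of -0.0299 in vitro and -0.0166 in vivo, against 0.0122 and 0.00835 for different numbers, so the numbers were not taken as pairs.

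Counts over all genes moved more. Between both 3D cultures 457 genes were called, 719 with a pseudocount of 0.1, 285 with near-identical libraries averaged and 668 without ESC-derived replicate 3. From E5.5 to E6.5 the 142 called genes became 262 with a pseudocount of 0.1 and 316 with all gene types, and from E6.5 to E7.5 the 1496 became 2365 with all gene types. TPM keeps no depth, so counting error is unknown.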
